A study of Mus musculus with 5 samples.

Results

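The canonical Wnt pathway of the brain endothelium was examined in 10 genes: *Ctnnb1*, *Lef1*, *Axin2*, *Apcdd1*, *Fzd4*, *Fzd6*, *Lrp5*, *Tspan12*, *Gpr124* (also named *Adgra2*) and *Tnfrsf19*. They were chosen by symbol as known parts or readouts of the pathway, with earlier results of these data known, and all 10 were found among the 34615 gene symbols of the files. RNA sequencing had been performed on microvascular fragments of the brain from 3 wild-type (WT) and 2 heterozygous Ins2-AKITA mice, the labels numbering the samples within each genotype. Each was taken as a separate mouse, which is not stated outright, so p-values measure the spread between these samples. All 5 were males on a C57BL6 background (given as C57Bl/6-J in the methods), between 26 and 38 weeks of age, and the WT mice were littermate controls. Ins2-AKITA mice carry 1 copy of the insulin 2 gene with a point mutation whose product damages pancreatic beta cells, so they become hyperglycemic through lack of insulin. Capture used magnetic beads against PECAM1, an endothelial surface protein, and the fragments carry attached pericytes and astrocyte end-feet, so the values are those of a mixture of cells. Markers of neurons and oligodendrocytes were also present in every sample, with summed levels above those of the endothelial markers. The comparison asks whether long hyperglycemia came with other levels of the genes that maintain the blood-brain barrier.

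In canonical Wnt signaling, a ligand binds a Frizzled receptor and an LRP co-receptor, and beta-catenin then escapes destruction, enters the nucleus and activates genes together with factors of the TCF and LEF family. In the brain, the ligands WNT7A and WNT7B from neural cells act on endothelial cells through GPR124 and RECK, and norrin acts through FZD4, LRP5 and TSPAN12. This signaling is needed to form the blood-brain barrier and to keep it, and *Axin2*, *Lef1*, *Apcdd1* and *Tnfrsf19* are widely used as readouts because their transcription follows it.

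Promoter windows of 250 bases before to 50 bases after the transcript start were taken from RefSeq (build GRCm38.p6), which matched 6 of the 10 genes with 11 windows. *Apcdd1*, *Fzd6*, *Lrp5* and *Gpr124* had no entry. The windows were searched on both strands for the core that TCF and LEF factors bind, spelled CTTTGAA, with the last pair of letters also allowed to be AT, TA or TT. Of all 32851 windows of 300 bases, 16.9% held such a word, and of the 11 windows of these genes 2 did, 1 of *Lef1* and 1 of *Tnfrsf19*. Windows of 3 genes are shown, for *Axin2* as the readout in widest use, and for *Fzd4* and *Tnfrsf19* because both Ins2-AKITA mice lay outside the WT range for these genes. *Tnfrsf19* has 2 windows, and the one printed was picked because it holds a matching word. Its other window, at chr14:61046806-61047105 on the minus strand, holds none. The printed windows lie at chr11:108920099-108920398 on the plus strand, chr7:89404116-89404415 on the plus strand and chr14:61037938-61038237 on the minus strand. Each is written 5′ to 3′ along its gene, with the matching word in capitals.
Axin2: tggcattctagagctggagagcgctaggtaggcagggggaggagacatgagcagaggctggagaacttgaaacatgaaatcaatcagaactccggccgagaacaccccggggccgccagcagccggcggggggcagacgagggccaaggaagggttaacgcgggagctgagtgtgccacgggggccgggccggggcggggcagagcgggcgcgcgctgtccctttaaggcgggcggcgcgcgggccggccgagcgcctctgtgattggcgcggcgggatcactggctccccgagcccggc
Fzd4: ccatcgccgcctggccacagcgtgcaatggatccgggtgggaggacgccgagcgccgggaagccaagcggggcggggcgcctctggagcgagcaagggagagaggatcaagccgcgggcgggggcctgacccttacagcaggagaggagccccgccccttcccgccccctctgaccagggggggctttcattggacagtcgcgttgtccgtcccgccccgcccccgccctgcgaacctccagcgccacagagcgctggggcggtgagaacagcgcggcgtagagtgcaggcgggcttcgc
Tnfrsf19: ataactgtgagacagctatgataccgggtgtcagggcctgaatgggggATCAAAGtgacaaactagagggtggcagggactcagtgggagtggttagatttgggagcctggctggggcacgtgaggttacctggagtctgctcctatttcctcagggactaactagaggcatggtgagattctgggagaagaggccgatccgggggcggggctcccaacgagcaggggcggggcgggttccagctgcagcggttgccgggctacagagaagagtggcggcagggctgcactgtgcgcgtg
The word in *Tnfrsf19* is the reverse complement of CTTTGAT and begins 202 bases before the start. The windows of *Axin2* and *Fzd4* hold 70.0% and 72.7% of G and C, against a median of 52.7% over all windows, and none of the searched words. A match is a description of letters and was not tested as a binding site.

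The deposited values are FPKM, fragment counts divided by transcript length and by the mapped fragments of the library, so levels of genes of different length can be set side by side. The steps between low FPKM values put the depth at 1124900 to 2841400 fragments per mouse, with WT replicate 3 the deepest. All values were compared on the log2(FPKM + 1) scale, on which the change of low genes is understated, and limma tested together the 16286 symbols whose mean FPKM reached 1. Of these, 4 passed an adjusted p of 0.05, which is 0.0246% of the genes, and all 4 were lower in Ins2-AKITA mice. Before adjustment, 726 genes (4.46%) had a p under 0.05.

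The 10 genes covered a wide range of levels. *Ctnnb1*, which encodes beta-catenin, was highest with a mean of 158 FPKM over the 5 mice, above 97.4% of the genes tested. *Axin2* followed with 45.0 FPKM, *Tnfrsf19* with 29.8, *Apcdd1* with 28.7 and *Lef1* with 19.2 FPKM, so the 4 readouts all stood above the median gene. The genes of the receptor complexes were lower, from 16.9 FPKM for *Tspan12* over 12.3 for *Fzd6*, 11.2 for *Lrp5* and 10.1 for *Gpr124* to 8.66 for *Fzd4*, which was above 45.6% of the genes. Between neighbours in this order, *Ctnnb1* exceeded *Axin2*, *Apcdd1* exceeded *Lef1* and *Lrp5* exceeded *Gpr124* in 5 of 5 mice. The other neighbours changed places in at least 1 mouse, *Tnfrsf19* and *Apcdd1* as well as *Lef1* and *Tspan12* in 2 of 5.

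**Figure D1:**
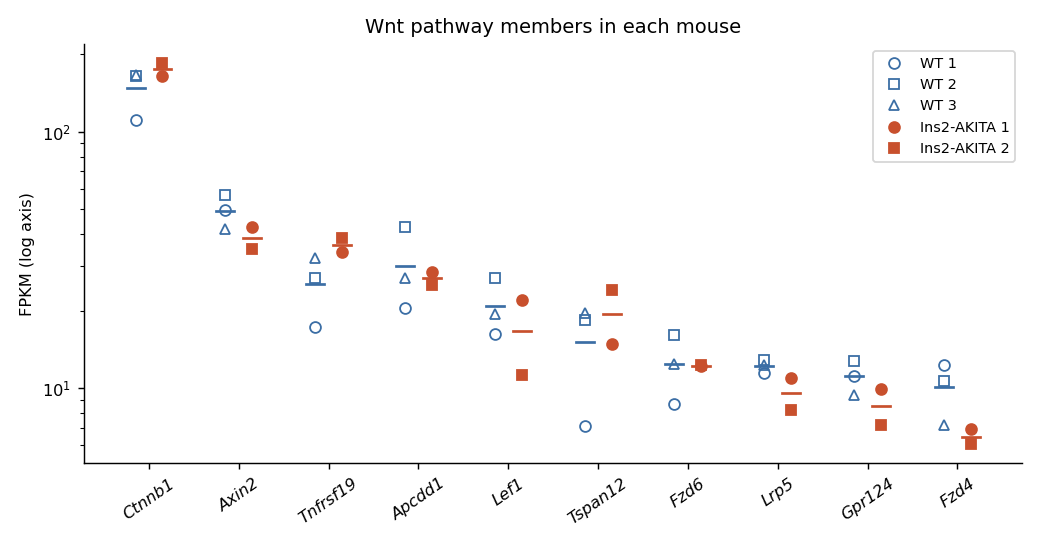
FPKM of the 10 Wnt genes on a log axis, ordered by mean log2 level. Open blue symbols are the 3 WT mice, filled red symbols the 2 Ins2-AKITA mice and short lines the group means; the genotypes are apart for *Tnfrsf19*, *Lrp5* and *Fzd4*, and overlap for the other 7 genes.

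None of the 10 genes passed the adjusted threshold in either direction, and none had an unadjusted limma p under 0.05, a level reached by 1.53% of all genes with higher and 2.93% with lower values in Ins2-AKITA mice. The smallest adjusted p from limma was 0.90. Of the 10, 6 had a negative and 4 a positive log2 fold change, with a median of -0.21 against -0.03 over all genes tested. Over all genes, 53.5% were below 0 and 46.5% above it. Rescaling each mouse to the same FPKM sum (TPM) took the medians to 1.23 and 1.07. The FPKM sums were 13025905, 12226958 and 3537481 in the WT group against 4018738 and 1531575 with Ins2-AKITA. The factors of median-ratio scaling, which levels the median gene, were 1.04, 1.03 and 0.978 in the WT group against 1.01 and 0.994 with Ins2-AKITA. With that scaling the medians were -0.19 and -0.01. *Fzd4* and *Lrp5* were lower in both Ins2-AKITA mice than in every WT mouse, a pattern seen in 10.3% of all genes. *Tnfrsf19* was higher in both, as were 9.24% of all genes, and 2 and 1 of 10 Wnt genes are to be read against these shares. With 3 mice against 2, an exact permutation test cannot give a p below 0.1. The 95% intervals of limma were narrowest for *Axin2* (-0.85 to 0.17) and widest for *Tspan12* (-0.70 to 1.56). In such bulk samples, fewer cells of a type and less RNA per cell cannot be told apart.

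**Figure D2:**
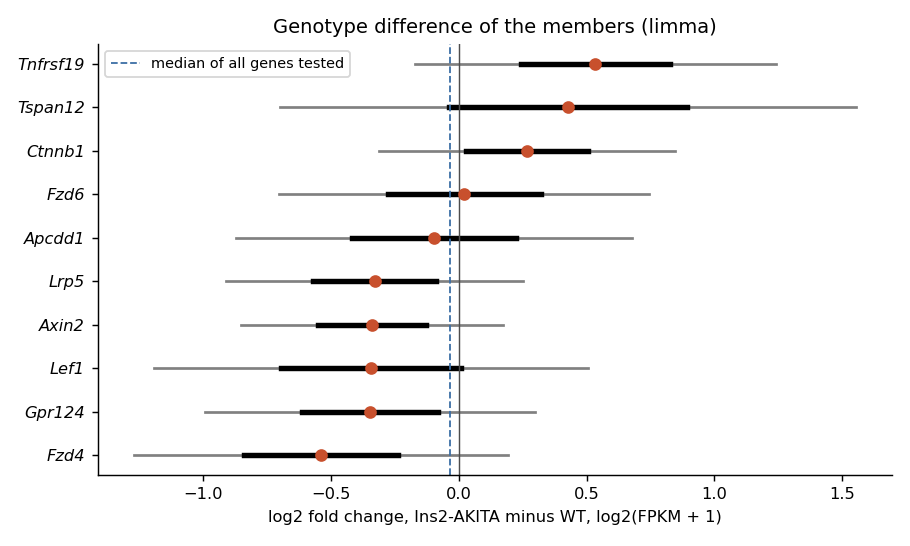
Log2 fold change of each gene between Ins2-AKITA and WT mice on the log2(FPKM + 1) scale. Dots are limma estimates, thick bars 1 standard error to each side and thin lines the 95% interval. Every interval includes 0. The 6 negative estimates turn positive when each mouse is rescaled to the same FPKM sum (TPM), which moves the median of all genes to 1.07. They stay negative under median-ratio scaling, where that median is -0.01.

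Levels of cell type markers also differed between the mice. Endothelial markers (*Pecam1*, *Cdh5* and 8 others) were above 0 in every mouse, and their summed FPKM was 375 to 603 in the WT group against 293 and 360 with Ins2-AKITA. Of the 10 markers, 9 had a lower estimate in Ins2-AKITA mice, 2 of them at an unadjusted p under 0.05 and none past the adjusted threshold. Astrocyte markers (*Gfap*, *Aqp4* and 5 others) summed to 2118 to 2927 FPKM in the WT group against 3338 and 3933 with Ins2-AKITA. All 7 had a higher estimate in Ins2-AKITA mice, 1 of them at an unadjusted p under 0.05 and none past the adjusted threshold. The summed smooth muscle markers were at 212 to 249 FPKM in the WT group against 166 and 129 with Ins2-AKITA, with all 4 markers below every WT mouse and 3 of them at an unadjusted p under 0.05, none past the adjusted threshold. The erythrocyte list was also below WT, whereas the sums of the pericyte, fibroblast, neuron, oligodendrocyte and microglia lists overlapped. Neuron markers summed to 744 to 822 FPKM in the WT group against 741 and 890 with Ins2-AKITA. Oligodendrocyte markers summed to 1926 to 2613 FPKM in the WT group against 2096 and 2302 with Ins2-AKITA. Both sums were above the endothelial sum in every mouse, although sums over different genes do not measure shares of cells. Over all genes, 2.93% were lower and 1.53% higher in Ins2-AKITA mice at an unadjusted limma p under 0.05. Both Ins2-AKITA mice were below every WT mouse for 10.3% of all genes. Under TPM the astrocyte sum stayed above WT by a narrow margin, at 827 in WT replicate 3 against 831 in Ins2-AKITA replicate 1. The fibroblast sum came to lie above WT as well, and the endothelial, smooth muscle and erythrocyte sums were no longer below it. The endothelial sum was 35.9 to 106 TPM in the WT group against 89.6 and 192 with Ins2-AKITA. On that scale, however, every list was highest in Ins2-AKITA replicate 2, the mouse with the lowest FPKM sum. The neuron sum, for example, was 60.8 to 214 TPM in the WT group against 184 and 581 with Ins2-AKITA. Median-ratio factors of the mice were all between 0.978 and 1.04. The part of these markers in the Wnt gene values was not tested.

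**Figure D3:**
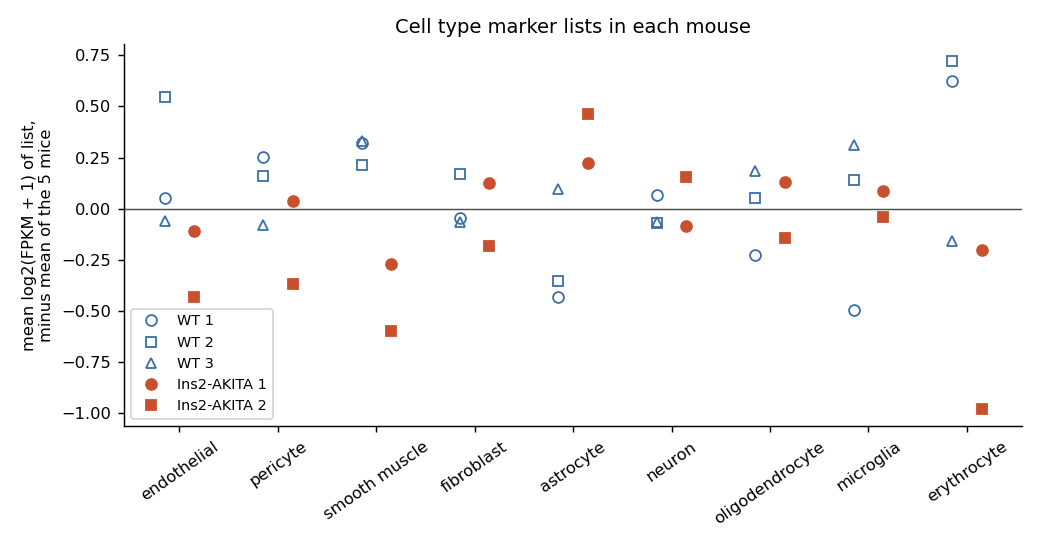
Mean log2(FPKM + 1) of each cell type marker list in each mouse, minus the mean of that list over the 5 mice. Endothelial, smooth muscle and erythrocyte lists are lowest in the 2 Ins2-AKITA mice (filled red) and the astrocyte list is highest there; the other lists overlap with WT (open blue). Under TPM the summed endothelial, smooth muscle and erythrocyte markers overlap with WT, and every list is highest in Ins2-AKITA replicate 2, whose FPKM sum is the lowest.

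*Fzd4* (ENSMUSG00000049791, chromosome 7 of NCBIM37 from 96552876 to 96558620, plus strand) encodes the Frizzled receptor for norrin. The WT mice showed 12.4, 10.7 and 7.20 FPKM, against 6.92 and 6.07 FPKM with Ins2-AKITA. Every WT mouse was above both Ins2-AKITA mice, but WT replicate 3 lay close to them. The group means were 10.1 ± 2.64 (SD, n = 3) and 6.50 ± 0.603 (SD, n = 2), so that the WT mean was 1.56 times the other. The log2 fold change was -0.54 (95% interval -1.27 to 0.19, adjusted p = 0.90 from limma, exact two-sided permutation p = 0.2). *Fzd4* has 1 annotated transcript, so its values could be turned into about 49.96, 48.9 and 70.8 fragments in the WT group against 26.9 and 27.0 with Ins2-AKITA. Counting error alone was thus between 11.9% and 19.3% of each value. Without WT replicate 3 the log2 fold change was -0.74, with an unadjusted limma p under 0.05 but an adjusted p of 0.58 from limma. In that fit 1402 of 16286 genes had an unadjusted limma p under 0.05, against 726 with all 5 mice.

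*Fzd6* (ENSMUSG00000022297, chromosome 15 from 38837879 to 38869732, plus strand) encodes another Frizzled receptor of these vessels. It had 8.66, 16.1 and 12.5 FPKM in the WT group against 12.2 and 12.3 FPKM with Ins2-AKITA. The Ins2-AKITA mice were nearly equal and sat in the middle of the WT range, and the log2 fold change was 0.02 (95% interval -0.70 to 0.75). The ratio of *Fzd4* to *Fzd6* within a mouse does not depend on scaling between mice. It was 1.43, 0.666 and 0.578 in the WT group against 0.568 and 0.493 with Ins2-AKITA. Both Ins2-AKITA ratios lay below all WT ratios, by a narrow margin to WT replicate 3, and WT replicate 1 stood apart as the only mouse with more *Fzd4* than *Fzd6*.

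The co-receptor gene *Lrp5* (ENSMUSG00000024913, chromosome 19 from 3584825 to 3686564, minus strand) had the tightest WT values of all 10 genes, with 11.5, 12.9 and 12.4 FPKM. The Ins2-AKITA mice had 10.99 and 8.25 FPKM, both below the WT mice, although replicate 1 by less than the counting error of 12.8%. Mean levels were 12.3 ± 0.725 (SD, n = 3) and 9.62 ± 1.94 (SD, n = 2), a log2 fold change of -0.33 (95% interval -0.91 to 0.25, adjusted p = 0.90 from limma, exact two-sided permutation p = 0.1, the smallest possible). Its relative *Lrp6* had 16.4, 23.3 and 19.99 FPKM in the WT group against 18.1 and 15.4 FPKM with Ins2-AKITA and was higher than *Lrp5* in all 5. The ratio of *Lrp5* to *Lrp6* was 0.555 to 0.699 in the WT group against 0.607 and 0.534 with Ins2-AKITA, so the balance of the co-receptors overlapped between genotypes.

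*Tspan12* (ENSMUSG00000029669, chromosome 6 from 21721395 to 21802515, minus strand) encodes a tetraspanin that helps norrin act through FZD4. It was the most variable of the 10 genes, with 7.15, 18.6 and 19.6 FPKM in the WT group against 14.9 and 24.1 FPKM with Ins2-AKITA. WT replicate 1 was far below the other 4 mice, and Ins2-AKITA replicate 1 was within the WT range. The log2 fold change was 0.43 (95% interval -0.70 to 1.56, adjusted p = 0.90 from limma) and -0.0059 without WT replicate 1. *Tspan12* stood 1.73-fold and more above *Fzd4* in 4 mice and at 0.578 of it in WT replicate 1.

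*Gpr124* (ENSMUSG00000031486, chromosome 8 from 28196313 to 28233890, plus strand) encodes the receptor that makes brain endothelial cells responsive to WNT7A and WNT7B. The WT mice showed 11.2, 12.8 and 9.45 FPKM, against 9.92 and 7.22 FPKM with Ins2-AKITA. Of the Ins2-AKITA mice, replicate 1 exceeded WT replicate 3, and replicate 2 was below all WT mice. The means of 11.1 ± 1.67 (SD, n = 3) and 8.57 ± 1.91 (SD, n = 2) gave a log2 fold change of -0.35 (95% interval -0.99 to 0.30, adjusted p = 0.90 from limma, exact two-sided permutation p = 0.3). *Reck*, the partner that binds these ligands, varied more, with 27.1, 16.4 and 9.17 FPKM in the WT group against 12.6 and 7.02 FPKM with Ins2-AKITA. The ratio of *Gpr124* to *Reck* was 0.413, 0.780 and 1.03 in the WT group against 0.785 and 1.03 with Ins2-AKITA, with the Ins2-AKITA values inside the WT range.

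*Ctnnb1* (ENSMUSG00000006932, chromosome 9 from 120838334 to 120869625, plus strand) encodes beta-catenin, which also links cadherins to actin in many cell types and so is not particular to vessels or to Wnt signaling. It had 111, 164 and 167 FPKM in the WT group against 165 and 185 FPKM with Ins2-AKITA. WT replicate 1 was low, and Ins2-AKITA replicate 1 was close to the other WT mice. The log2 fold change was 0.27 (95% interval -0.31 to 0.85, adjusted p = 0.90 from limma), and 0.077 without WT replicate 1. The annotation holds *Ulk4* and *4930593C16Rik* on the opposite strand across part of *Ctnnb1*, and since the use of strand in counting is not stated, their reads cannot be told apart.

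*Lef1* (ENSMUSG00000027985, chromosome 3 from 130813389 to 130927274, plus strand) encodes a partner of beta-catenin on DNA and is itself induced by the pathway. It had 16.3, 26.8 and 19.5 FPKM in the WT group against 22.2 and 11.3 FPKM with Ins2-AKITA. The Ins2-AKITA mice differed from each other, with replicate 1 above WT replicates 1 and 3 and replicate 2 below all. The log2 fold change of -0.34 had the second widest interval of the 10 (95%, -1.19 to 0.51), and without Ins2-AKITA replicate 2 it was 0.11. *Tcf7* had 6.03 to 9.55 FPKM in the WT group against 8.20 and 5.63 with Ins2-AKITA, and *Tcf7l2* 18.7 to 28.5 in the WT group against 21.4 and 23.1 with Ins2-AKITA. *Tcf7l1* had 13.9, 8.43 and 8.10 FPKM in the WT group against 6.60 and 7.96 FPKM with Ins2-AKITA, with both below the WT mice by a narrow margin (log2 fold change -0.40, adjusted p = 0.90 from limma).

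Of the readouts, *Axin2* (ENSMUSG00000000142, chromosome 11 from 108781663 to 108812097, plus strand) encodes a scaffold of the complex that destroys beta-catenin and is induced as a feedback brake. The WT mice showed 49.7, 56.4 and 41.7 FPKM, against 42.4 and 34.8 FPKM with Ins2-AKITA. Ins2-AKITA replicate 1 was just above WT replicate 3, so the groups overlapped. Mean levels were 49.3 ± 7.36 (SD, n = 3) and 38.6 ± 5.36 (SD, n = 2), so that the WT mean was 1.28 times the other, with a log2 fold change of -0.34 (95% interval -0.85 to 0.17, adjusted p = 0.90 from limma, exact two-sided permutation p = 0.3). The noncoding *Gm11670* overlaps *Axin2* on the opposite strand.

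*Apcdd1* (ENSMUSG00000071847, chromosome 18 from 63081981 to 63112849, plus strand) encodes a membrane protein that dampens Wnt signaling and is induced by it. It had 20.6, 42.6 and 26.9 FPKM in the WT group against 28.4 and 25.3 FPKM with Ins2-AKITA, which lay within the WT range. The log2 fold change was -0.10 (95% interval -0.87 to 0.68), and it was 0.18 without WT replicate 2, the highest mouse.

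*Tnfrsf19* (ENSMUSG00000060548, chromosome 14 from 61582671 to 61665692, minus strand), a receptor of the tumor necrosis factor family also called TROY, was the readout with a positive estimate. The WT mice showed 17.3, 26.9 and 32.3 FPKM, against 34.1 and 38.5 FPKM with Ins2-AKITA. Both Ins2-AKITA mice were above all WT mice, and the gap to WT replicate 3 was small. Mean levels were 25.5 ± 7.62 (SD, n = 3) and 36.3 ± 3.13 (SD, n = 2), a ratio of 1.42 in favour of Ins2-AKITA. This gave the largest positive log2 fold change of the 10 genes, 0.53 (95% interval -0.17 to 1.24, adjusted p = 0.90 from limma, exact two-sided permutation p = 0.2). Without WT replicate 1 it was 0.29, and without Ins2-AKITA replicate 1 it was 0.62, below the 0.76 of *Tspan12*. The readouts thus did not share a direction, with *Axin2*, *Lef1* and *Apcdd1* at negative and *Tnfrsf19* at positive estimates, none of them past the test. Under TPM with 1 added, relative to the median of all genes there, the estimates were -0.03 for *Lef1*, 0.17 for *Axin2*, 0.29 for *Apcdd1* and 0.83 for *Tnfrsf19*. Without the added 1, rescaling a mouse cannot change such a difference from the median gene. Relative to the 14384 genes above 0 in all mice it was -0.35, -0.33, -0.08 and 0.57 in the same order. The turned signs of *Axin2* and *Apcdd1* thus appeared only with the added 1 and do not come from scaling alone.

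The Wnt genes were also set against the endothelial markers of the same mouse, by subtracting the mean log2(FPKM + 1) of the 10 endothelial markers. Seen this way, *Lef1*, *Axin2*, *Fzd4*, *Lrp5* and *Gpr124* differed between genotypes by -0.09 to 0.12 log2 units, and the groups overlapped for all of them. *Fzd4*, for example, stood at -1.42, -2.10 and -2.01 relative to the endothelial markers in the WT group and at -2.01 and -1.85 with Ins2-AKITA. *Axin2* stood at 0.51, 0.19 and 0.37 in the WT group against 0.44 and 0.49 with Ins2-AKITA, with a pooled SD of 0.13. For each of these 5 genes the difference relative to the endothelial markers was smaller than its pooled SD. All 5 lay below the median of all genes on this scale, which was 0.41, so 0 is not the level of a typical gene here.

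The other genes were higher in Ins2-AKITA mice relative to the endothelial markers, by 0.35 for *Apcdd1*, 0.47 for *Fzd6*, 0.72 for *Ctnnb1*, 0.88 for *Tspan12* and 0.98 for *Tnfrsf19*. The endothelial markers were themselves lower in Ins2-AKITA mice, so genes at large shifted upwards on this scale, with a median difference of 0.41 over all genes tested and 0.24 over the 10 Wnt genes. *Apcdd1* thus stood below the median of all genes, *Fzd6* close to it, and *Ctnnb1*, *Tspan12* and *Tnfrsf19* above it. Both Ins2-AKITA mice were above all WT mice for 4 of the 10, all of these genes except *Tspan12*, as they were for 27.0% of all genes on this scale. *Tnfrsf19* stood at -0.96, -0.85 and 0.01 in the WT group against 0.14 and 0.63 with Ins2-AKITA relative to the endothelial markers. Exact permutation p values were between 0.2 and 0.9 across the 10 genes. Set against the 7 astrocyte markers instead, a reference added after the values had been seen, *Tnfrsf19* differed by -0.04 and *Tspan12* by -0.15, and the other 8 genes by between -1.11 and -0.31, next to a median of -0.61 over all genes. The sign of *Fzd4*, *Lef1* and *Lrp5* against the endothelial markers rested on single mice: *Fzd4* was at 0.12 without WT replicate 1, *Lef1* at -0.19 without Ins2-AKITA replicate 1 and *Lrp5* at -0.029 without WT replicate 2.

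**Figure D4:**
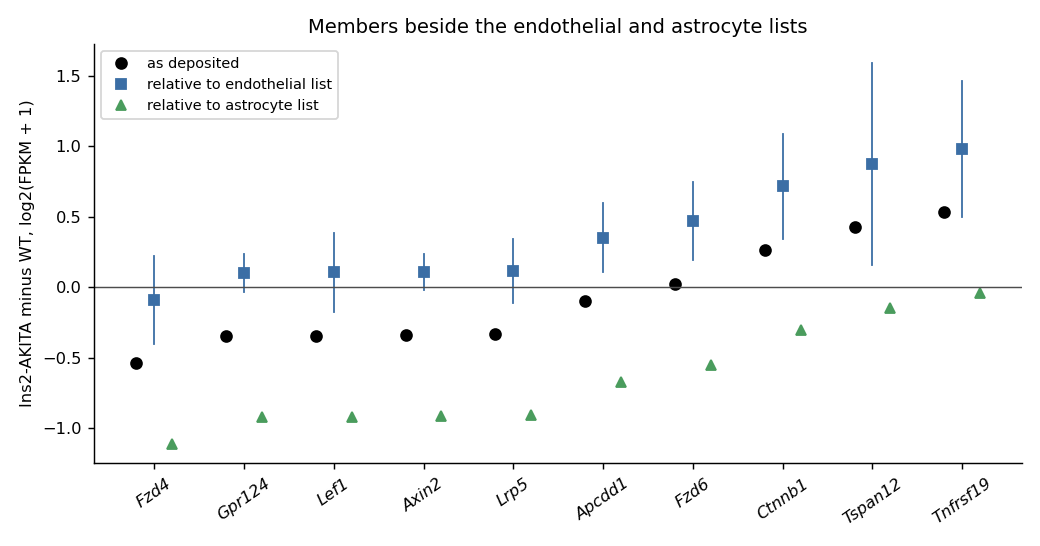
Difference between Ins2-AKITA and WT means for each gene on the log2(FPKM + 1) scale, as deposited (black circles), relative to the endothelial list (blue squares, with 1 pooled SD to each side) and relative to the astrocyte list (green triangles). *Fzd4*, *Gpr124*, *Lef1*, *Axin2* and *Lrp5* lie near 0 against the endothelial list, where the median of all genes is 0.41. *Tnfrsf19* and *Tspan12* are nearest to 0 against the astrocyte list, where that median is -0.61. The 6 estimates that are negative as deposited turn positive under TPM, which moves the median of all genes to 1.07. They stay negative under median-ratio scaling.

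Ratios to *Ctnnb1* within a mouse, which no scaling between mice can change, are built from the values given above. They show the same numbers in another way and are no independent evidence for the split of the readouts. *Axin2* was at 0.447, 0.344 and 0.251 of *Ctnnb1* in the WT group and at 0.257 and 0.188 with Ins2-AKITA. *Tnfrsf19* was at 0.156, 0.164 and 0.194 in the WT group against 0.207 and 0.208 with Ins2-AKITA. The *Axin2* ratio overlapped between the genotypes, while the *Tnfrsf19* ratio was higher in both Ins2-AKITA mice by a small step. The *Lef1* and *Apcdd1* ratios overlapped, with log2 differences of -0.64 and -0.37 between the genotype means.

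Beyond these 10 genes, 104 further genes of the pathway or under its control were listed by role, of which 85 reached a mean of 1 FPKM. None of the 85 passed the adjusted threshold, 1 had an unadjusted p under 0.05, and their median log2 fold change was -0.06. Both Ins2-AKITA mice were above all WT mice for 8 of them and below for 8. These shares are close to the 9.24% and 10.3% over all genes.

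Among the ligands and their helpers, 16 of 26 genes were tested, with a median log2 fold change of -0.04. The most abundant was *Wnt5a*, mostly known for signaling apart from beta-catenin, with 21.3, 9.32 and 7.31 FPKM in the WT group against 14.2 and 22.5 FPKM with Ins2-AKITA. *Wnt7b* was steady, with 10.1, 11.4 and 16.6 FPKM in the WT group against 14.2 and 13.2 FPKM with Ins2-AKITA. *Wnt7a* was not, with 1.45, 2.57 and 10.8 FPKM in the WT group against 11.4 and 6.86 FPKM with Ins2-AKITA. WT replicates 1 and 2 were low for *Wnt7a* and WT replicate 3 lay between the Ins2-AKITA mice (log2 fold change 1.07, 95% interval -0.59 to 2.73, adjusted p = 0.90 from limma).

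*Ndp*, which encodes norrin, had the highest estimate among the ligands. The WT mice showed 0, 2.65 and 4.10 FPKM, against 4.66 and 5.91 FPKM with Ins2-AKITA, and 3 fragments in WT replicate 1 would have given 1.501 FPKM. Both Ins2-AKITA mice were above the WT mice, and the log2 fold change was 1.24 (95% interval -0.53 to 3.01, adjusted p = 0.90 from limma). *Wnt1* had the lowest, with 9.39 FPKM in WT replicate 1 where the remaining WT mice had 1.89 and 0.586, and those with Ins2-AKITA 0 and 0.657.

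The remaining receptors (16 of 17 tested) had a median log2 fold change of 0.05, from -0.72 for *Ptk7* to 0.45 for *Fzd8*. *Ptk7*, a co-receptor in planar polarity, had 4.89, 9.35 and 5.70 FPKM in the WT group against 3.52 and 3.51 FPKM with Ins2-AKITA, both below WT (adjusted p = 0.90 from limma). *Fzd8* had 3.02, 2.18 and 2.70 FPKM in the WT group against 3.69 and 4.24 FPKM with Ins2-AKITA, both above WT (adjusted p = 0.90 from limma). Extracellular inhibitors (10 of 17 tested) had a median of 0.07 and were led by *Dkk3*, a secreted protein of the Dickkopf family, with 50.04, 51.8 and 60.4 FPKM in the WT group against 55.5 and 71.8 FPKM with Ins2-AKITA. The secreted antagonist *Sostdc1* had 11.2, 23.8 and 12.9 FPKM in the WT group against 20.3 and 4.08 FPKM with Ins2-AKITA, so that the Ins2-AKITA mice held the second highest and the lowest value. *Sfrp2*, with the highest estimate of this list, stayed at or below 2.09 FPKM in every mouse.

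Cytoplasmic components (17 of 17 tested) formed the most even group, with log2 fold changes between -0.40 for *Nkd2* and 0.30 for *Fbxw11* and a median of 0.05. *Apc*, the scaffold on which beta-catenin is marked for destruction, was the most abundant with 113, 193 and 206 FPKM in the WT group against 159 and 251 FPKM with Ins2-AKITA. Nuclear partners (14 of 14 tested) had a median of -0.06. The corepressor gene *Tle3* was the most abundant, with 106, 54.5 and 59.6 FPKM in the WT group against 56.3 and 81.2 FPKM with Ins2-AKITA. *Tle2* of the same family had the lowest estimate (-1.08, 95% interval -2.63 to 0.46), from 43.6, 51.4 and 21.0 FPKM in the WT group against 33.7 and 7.86 FPKM with Ins2-AKITA, with Ins2-AKITA replicate 1 inside the WT range. Without Ins2-AKITA replicate 2 it was at -0.10, and without replicate 1 at -2.07. *Pygo1*, a reader of histone marks that works with beta-catenin, had the highest (0.37, 95% interval -0.48 to 1.21).

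Barrier genes and general targets that depend on endothelial Wnt signaling had the lowest median of the lists. Of the 12 tested, 11 had a negative estimate and the median was -0.45, next to -0.44 for the endothelial markers, and none passed the adjusted threshold. The list was not sorted by whether the signaling raises or lowers a gene, and *Plvap* (-0.21) is among the 11. The count therefore gives no direction of the signaling. Both Ins2-AKITA mice were below all WT mice for 4 of the 12 (*Foxq1*, *Abcb1a*, *Slc7a5* and *Myc*), for 3 of 10 endothelial markers and for 10.3% of all genes. *Slc2a1*, the glucose transporter of the barrier and the most abundant of them, had 273, 167 and 137 FPKM in the WT group against 143 and 106 FPKM with Ins2-AKITA, so that the groups overlapped (log2 fold change -0.58, adjusted p = 0.90 from limma). The paper, with its own test in Cufflinks, reports *Slc2a1* as significantly lower in Ins2-AKITA mice. *Myc* alone had an unadjusted p under 0.05 (adjusted p = 0.90 from limma, exact two-sided permutation p = 0.1), with 2.43, 6.54 and 3.48 FPKM in the WT group against 0.576 and 0.506 FPKM with Ins2-AKITA. In Ins2-AKITA mice these values lie below the 1.26 and 1.11 FPKM that 3 fragments would give. *Sp5*, a direct target singled out after its values were seen and below the filter, had 0.914, 1.21 and 0.749 FPKM in WT. It was listed at 0 in both Ins2-AKITA mice, where 3 fragments would give 1.42 and 1.25 FPKM. In the WT mice, 3 fragments would give 1.37, 1.21 and 0.563 FPKM, so *Sp5* was near the floor in all 5 mice. *Ccnd1* was the gene with a positive estimate, with 14.1, 24.3 and 22.5 FPKM in the WT group against 26.9 and 18.8 FPKM with Ins2-AKITA. Under TPM the median of the other Wnt lists together turned from -0.06 to 1.07, the value to which the median of all genes moved.

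**Figure D5:**
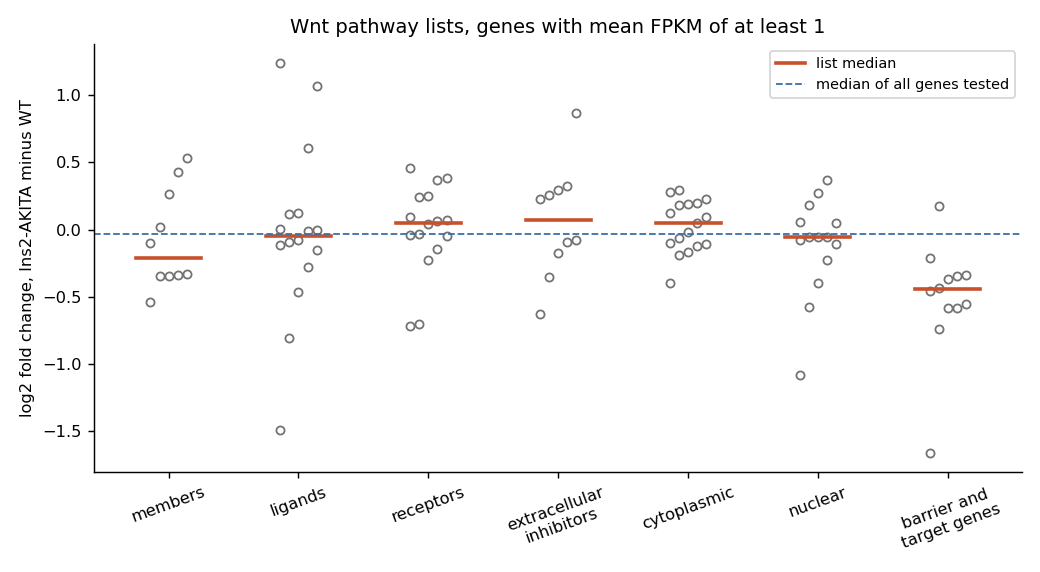
Log2 fold changes (Ins2-AKITA minus WT, log2(FPKM + 1)) of the 10 genes and of the 6 other pathway lists, 1 open circle per gene with a mean FPKM of at least 1. Red bars are list medians and the dashed line is the median of all genes tested (-0.03); the barrier and target list lies lowest at -0.45. Under TPM the medians of the 10 genes and of the other lists together turn positive with that of all genes.

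The mice did not contribute evenly to these differences. WT replicate 1 was the lowest of the 5 mice for *Ctnnb1*, *Apcdd1*, *Fzd6*, *Tspan12* and *Tnfrsf19*, and Ins2-AKITA replicate 2 was the lowest for *Lef1*, *Axin2*, *Fzd4*, *Lrp5* and *Gpr124*. WT replicate 2 was the highest for 6 of the 10 genes. Ins2-AKITA replicate 1 and WT replicate 3 were neither lowest nor highest for any. Without Ins2-AKITA replicate 2, 5 of the 10 genes had a negative estimate and the median log2 fold change was -0.0015, and without WT replicate 1 it was 8 of 10 and -0.33. Without WT replicate 2 the median was 0.01.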

How the data were processed

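Microvascular RNA of 5 mice was sequenced on an Illumina HiSeq after ribosomal RNA depletion and stranded library preparation. Per the labels, the authors mapped reads to NCBIM37 with TopHat2 2.0.4, removed duplicates with Picard 1.92 and used Cufflinks 2.2.1, and the deposited values are FPKM per Ensembl gene, in a file for each sample. The Ensembl release is not given in the sources used here. Removing duplicates can lower highly expressed genes.

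Of 37982 identifiers, 37197 matched the GENCODE vM1 annotation of NCBIM37, and rows sharing a symbol were summed. Symbols whose mean FPKM reached 1 were fitted with limma 3.58.1 in R 4.3.3 (lmFit, eBayes with trend) after conversion to log2(FPKM + 1), the model holding genotype alone, two-sided, adjusted by Benjamini-Hochberg over all 16286. Depth was estimated from low FPKM of genes with 1 transcript and an effective length 224 to 230 nucleotides below the exon length; 97.5% to 97.9% of these values were within 0.03 of a whole fragment number. The counting errors given for fragment numbers cover counting error only. *Amer1* was read from its older symbol *Fam123b*.

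Named were the 10 genes, partners chosen by knowledge, and per other list the most abundant gene, both extremes of change and any gene at an unadjusted p under 0.05. These genes and lists were chosen with earlier results of these data known. Alternatives were TPM, 0.1 in place of the added 1, a filter at 5 or none, median-ratio scaling, quantile normalization, protein-coding genes only, a constant prior, the highest row per symbol, the replicate number as a block, *Pecam1* and *Cdh5* alone as endothelial reference, and each mouse left out. The astrocyte reference, marker sums under TPM, and log2(FPKM) without the added 1 relative to all genes, were later additions, chosen with the values in view.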

Additional observations from a re-analysis of the deposited data

How the results depend on the processing

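No Wnt gene, of the 10 or of the other lists, passed an adjusted p of 0.05 in limma under any of the 15 alternatives to the fit. The smallest adjusted p among the 10 was 0.27 (TPM), where *Tnfrsf19* had an unadjusted p under 0.05. The number of all genes called higher (0) was 58 under TPM and 1 under a constant prior, and ranged from 0 to 10 with a mouse left out. The number lower (4) became 30 with TPM, 2 with no filter, the filter at 5 or a constant prior, and 1 with protein-coding genes only, and ranged from 1 to 6 with a mouse left out. Where an Ins2-AKITA mouse was left out, the other was assumed to vary like the WT mice. At an unadjusted limma p under 0.05, TPM gave 1913 genes (1808 higher), the replicate block 1249 and the fit without WT replicate 3 1402. The main fit gave 726, and each of these fits tested 16286 genes.

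Both genotypes carry replicate numbers, but the labels do not tie a number to a litter or day, and with 2 Ins2-AKITA mice the deviations are exact opposites (correlations of same-numbered mice 0.0512 and -0.0343), so the numbers were not taken as pairs. With the replicate block the median of the 10 genes was -0.23, *Fzd4* was at -0.74 and *Tnfrsf19* at 0.72 (adjusted p = 0.60 from limma for both), and *Tnfrsf19* alone of the 10 had an unadjusted p under 0.05. WT replicate 3 has no partner there.

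TPM moved the median of all genes from -0.03 to 1.07, that of the 10 genes from -0.21 to 1.23 and that of the other Wnt lists from -0.06 to 1.07. It reversed *Lef1* (1.04), *Axin2* (1.24), *Apcdd1* (1.36), *Fzd4* (0.72), *Lrp5* (0.91), *Gpr124* (0.89), *Reck* (0.70), *Lrp6* (1.15), *Tcf7* (0.93), *Tcf7l1* (0.84), *Tcf7l2* (1.34), *Ptk7* (0.43), *Sostdc1* (0.68), *Nkd2* (0.51), *Tle3* (1.56), *Tle2* (0.49) and *Slc2a1* (1.11). Without the added 1, and relative to the median of the 14384 genes above 0 in all mice, which no such scaling can change, all 10 genes kept the sign of the deposited values, from -0.58 for *Fzd4* to 0.57 for *Tnfrsf19*. Quantile normalization took the median of the other lists to 0.042.

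Leaving out 1 mouse at a time, the median of the 10 genes ranged from -0.33 to 0.011 and that of the other lists from -0.072 to -0.0074. The ranges of log2 fold changes that turned sign were -0.80 to 0.11 for *Lef1*, -0.33 to 0.18 for *Apcdd1*, -0.20 to 0.22 for *Fzd6*, -0.0059 to 0.76 for *Tspan12*, -0.012 to 0.32 for *Wnt7b*, -0.35 to 0.13 for *Tcf7*, -0.23 to 0.060 for *Tcf7l2*, -1.67 to 0.40 for *Sostdc1*, -0.051 to 0.60 for *Apc*, -0.059 to 0.66 for *Fbxw11*, -0.31 to 0.24 for *Tle3* and -0.067 to 0.42 for *Ccnd1*. The other members kept their sign, at 0.077 to 0.37 for *Ctnnb1*, -0.48 to -0.20 for *Axin2*, -0.74 to -0.39 for *Fzd4*, -0.52 to -0.14 for *Lrp5*, -0.55 to -0.14 for *Gpr124* and 0.29 to 0.72 for *Tnfrsf19*. Relative to the endothelial list, *Fzd4* (-0.22 to 0.12), *Lef1* (-0.19 to 0.40) and *Lrp5* (-0.029 to 0.25) turned sign. The median of the 10 genes relative to the endothelial list ranged from 0.18 to 0.33, and against the astrocyte list, added after the values had been seen, it was -0.79 in place of 0.24. Why the settings gave other values was not tested. Depth limits *Fzd4* most among the members with 1 transcript length, with 26.9 fragments in an Ins2-AKITA mouse.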
